A study of Homo sapiens with 24 samples.

Results

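Shelterin is the protein complex that coats the ends of human chromosomes, and TERT is the catalytic subunit of telomerase, the enzyme that extends those ends. The 7 genes described here are the 6 that encode shelterin (TERF1, TERF2, TERF2IP, TINF2, POT1 and ACD) and TERT, of 18417 genes measured with a single gene symbol. The set was chosen by the measured fall of TERF2IP with PKCδ depletion in all 4 cell lines of the study. The values of TERF2IP in that comparison are therefore given as a description with no test, while its 6 partners came with it by membership of the complex or of telomerase and not by their values. The lines derive from non-small cell lung cancer (NSCLC), and the study set them against each other in pairs, H2009 and H441 against A549 and H460. Each line stably expressed, from a lentiviral vector under puromycin selection, either the shRNA δ193, aimed at the coding region of the PKCδ mRNA, or a scrambled shRNA (δscr). With 3 biological replicates a group, 24 Affymetrix gene arrays were hybridized with total RNA. Each value is the log2 level that the authors computed by RMA for a transcript cluster (the probes for 1 locus), so a difference of 1 on this scale is a doubling.

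At a telomere, TRF1 and TRF2, the products of TERF1 and TERF2, bind the double-stranded repeat TTAGGG. TIN2, from TINF2, bridges them and holds TPP1, from ACD, which in turn carries POT1, the protein that covers the single-stranded end. TPP1 also recruits telomerase. RAP1, the product of TERF2IP, joins the complex through TRF2, and outside the nucleus it binds the IκB kinases that switch on NF-κB. Both names are ambiguous: the symbol TPP1 belongs to a lysosomal peptidase gene, and the small GTPases named RAP1 are unrelated to TERF2IP. Together shelterin keeps chromosome ends from being read as DNA breaks, and most lung cancers maintain them with telomerase.

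PRKCD, which encodes PKCδ, stood in δ193 cells at 21.0% of its δscr level for H2009, 18.9% for H441, 41.8% for A549 and 24.4% for H460, on the scale of the arrays. Its δscr mean was lowest in A549, at 6.97, against 8.17 in H2009, 7.86 in H441 and 8.32 in H460. The array medians lay between 4.78 and 4.91. Replicate arrays correlated at 0.9839 or more in H441 δ193 cells and 0.9892 or more in H441 δscr cells, against 0.9933 or more in every other group, and no array was a copy of another (highest correlation 0.9962). The epithelial keratins KRT8 and KRT18 had group means between 11.24 and 12.55, and of the markers of other cell types the leukocyte gene PTPRC lay lowest, between 2.66 and 2.79. The monocyte gene CD14 had group means between 4.66 and 6.11 and the fibroblast collagen gene COL1A1 between 6.03 and 6.7, beside a median gene mean of 5.79, and their part in the results was not tested. The epithelial markers EPCAM, KRT19 and CDH1 varied more, with group means from 4.71 to 11.2, 4.98 to 10.77 and 4.9 to 11.23. Among the arrays used here δ193 was the single shRNA against PKCδ, so off-target silencing by it and depletion of PKCδ cannot be told apart.

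TERF2IP, by the choice of the set, was lower in δ193 cells than in δscr cells of each line. In H2009 the 3 δ193 arrays read 6.52, 6.54 and 6.48, against 7.57, 7.49 and 7.38 for the δscr arrays. In H441 they read 6.59, 6.49 and 6.23 in δ193 cells and 7.34, 7.41 and 7.27 in δscr cells. In A549 the values were 6.74, 6.46 and 6.65 with δ193 and 7.31, 7.40 and 7.46 with δscr. Each δ193 array of these lines therefore lay below each δscr array of all of them. H460 cells had the lowest mean with either shRNA, their arrays reading 6.35, 6.09 and 6.38 with δ193 and 7.22, 7.21 and 7.15 with δscr. The log2 difference was -0.97 for H2009, -0.90 for H441, -0.77 for A549 and -0.92 for H460 (standard error 0.10 for each). TERF2IP in δ193 cells thus stood at 51.2%, 53.4%, 58.6% and 52.9% of the δscr level in the same order of lines. A549 had the smallest log2 difference of both PRKCD (-1.26) and TERF2IP, while H441, with the largest of PRKCD (-2.40), lay behind H2009 (-2.25 for PRKCD) and H460 (-2.03) for TERF2IP. The PRKCD level left in δ193 cells was not highest in A549: the means were 5.92 for H2009, 5.46 for H441, 5.71 for A549 and 6.29 for H460. These lie near the median gene mean of 5.79, and whether they stand above background was not measured. In RNA from a whole culture, fewer cells with the transcript and less transcript per cell cannot be told apart.

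As a description, the mean difference of TERF2IP in H2009 and H441 minus that in A549 and H460 was -0.09, and the largest gap between single lines, H2009 minus A549, was -0.19. The spread within a group was not alike: the SD of TERF2IP was 0.03 in H2009 δ193 cells and 0.18 in H441 δ193 cells (n = 3 arrays each). Without H441 δ193 replicate 3, whose value of 6.23 was the lowest of its group, the difference in H441 was -0.80. That array did not have the strongest depletion, since PRKCD read 6.00 there, against 5.69 and 4.68 in H441 δ193 replicates 1 and 2.

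**Figure D1:**
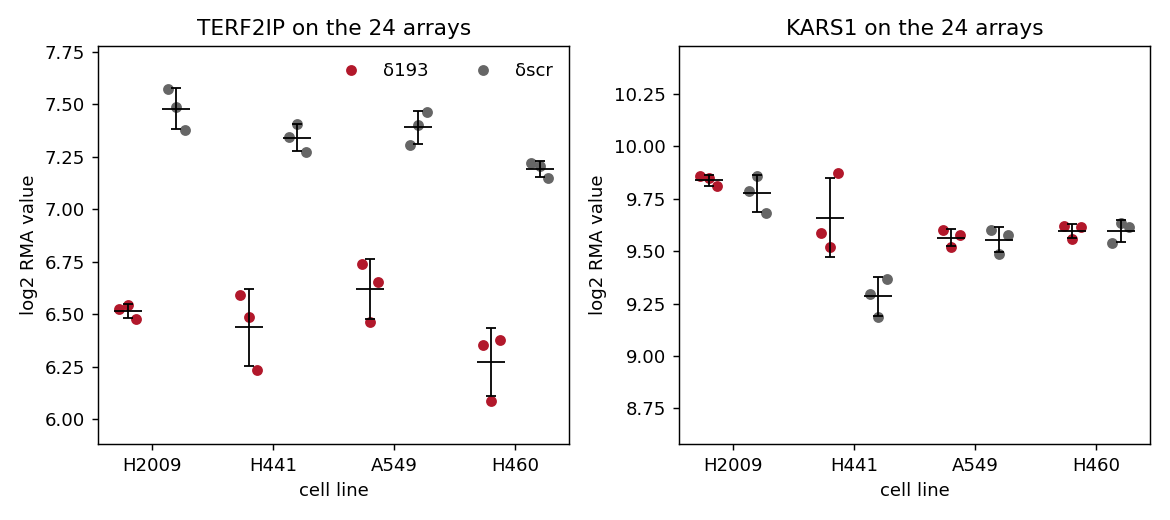
Log2 RMA value (vertical axis) of TERF2IP, left, and of its neighbour KARS1, right, on each of the 24 arrays, by cell line, with δ193 in red and δscr in grey. Points are arrays and bars the mean and SD of 3, and both panels span the same number of log2 units. The δ193 and δscr points of TERF2IP do not overlap in any line, while those of KARS1 do in all lines but H441, where the δ193 points lie higher.

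TERF2IP lies back to back with KARS1, which encodes lysyl-tRNA synthetase, and the sequence that separates their start sites is shown because the pair shares it while the transcripts were measured apart. In RefSeq's promoter windows (build GRCh38.p14) the starts are 107 bases apart, at chr16:75647666-75647772, outside either transcript. The sequence is printed on the plus strand, 5′ to 3′, from the start of KARS1, which is read to the left, to that of TERF2IP, which is read to the right. Capitals mark an ETS core (TTCCGG) and a GC box (GGGCGG).
KARS1-TERF2IP gap: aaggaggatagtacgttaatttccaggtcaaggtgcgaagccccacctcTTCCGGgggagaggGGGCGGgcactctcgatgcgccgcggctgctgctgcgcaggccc
The gap is 65.4% G and C. Read on both strands, an ETS core occurs in 9.2% and a GC box in 32.3% of the 35097 windows of the same length upstream of RefSeq gene starts. The CCAAT box (CCAAT), the E-box (CACGTG) and the telomere repeat (TTAGGG) have no match in it. Of 27312 genes in that table, 6.56% have a start on the opposite strand within this distance upstream. A match of letters is a description of the window and not a binding site.

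KARS1 was not lower by the test with δ193 in any line. Its δ193 arrays read 9.86, 9.85 and 9.81 in H2009, against 9.79, 9.86 and 9.68 with δscr. In H441 they read 9.59, 9.52 and 9.87 with δ193 and 9.30, 9.19 and 9.37 with δscr, without overlap. In A549 they read 9.60, 9.52 and 9.58 with δ193 and 9.60, 9.49 and 9.58 with δscr, and in H460 9.62, 9.56 and 9.61 with δ193 and 9.54, 9.64 and 9.61 with δscr. The log2 difference was 0.06 for H2009, 0.37 for H441, 0.01 for A549 and 0.00 for H460 (standard error 0.09 for each). KARS1 passed in H441, where it was higher (limma, Benjamini-Hochberg adjusted p = 0.00345), and in no other line (adjusted p = 0.809 in H2009, 0.986 in A549 and 0.999 in H460). A call asked for an adjusted p below 0.05 together with a log2 difference of 0.32 or more in size, which 14.3% of all genes met in H441.

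The other measured genes around TERF2IP on chromosome 16 were not called in any line. They are GABARAPL2, an autophagy protein, and ADAT1, a tRNA deaminase, on the side of KARS1, and CNTNAP4, a neuronal adhesion protein, MON1B, which acts in endosome maturation, and ADAMTS18, a secreted protease, on the other side. Their log2 differences lay between -0.31 (ADAT1 in H441, adjusted p = 0.026 but under that size) and 0.24 (MON1B in H441, adjusted p = 0.168). GABARAPL2 in H441 also passed the p threshold and not the size (-0.26, adjusted p = 0.0198).

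**Figure D2:**
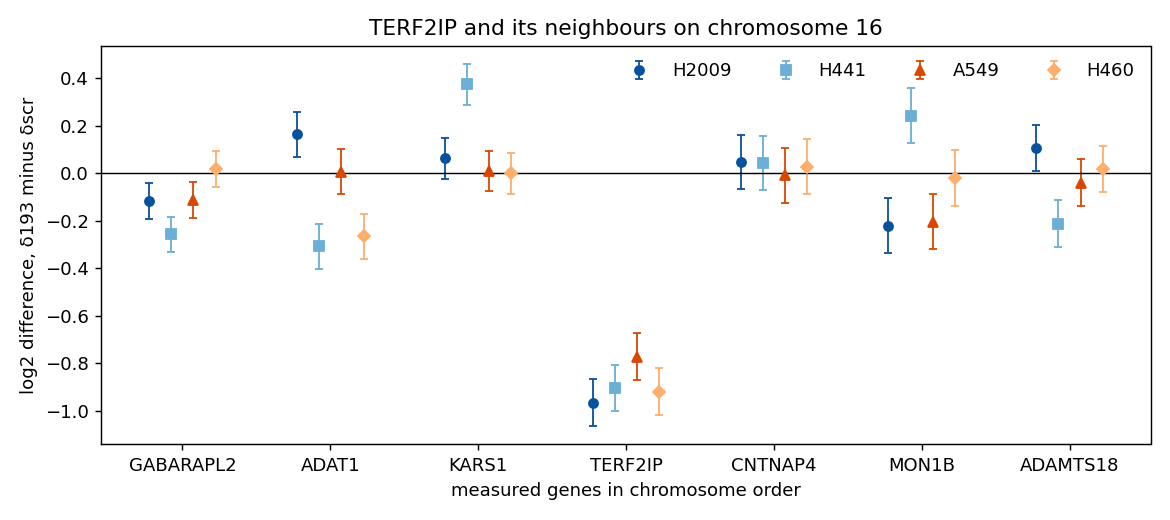
Log2 difference, δ193 minus δscr (vertical axis), of TERF2IP and the 3 nearest measured genes on each side, in chromosome order (horizontal axis), with a symbol for each cell line and bars of 1 standard error. TERF2IP lies between -0.97 and -0.77, and its neighbours between -0.31 and 0.37.

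The genes whose pattern most resembled that of TERF2IP were RBFOX2, a splicing regulator (Pearson r = 0.960), ADA, adenosine deaminase (0.959), SNX27, a sorting nexin (0.957), RAB23, a Rab GTPase (0.953), and PSME3, a proteasome activator (0.951), over 24 arrays with the mean of each line subtracted. The arrays fall into those with δ193 and those with δscr, and these values describe that split: with the mean of each group subtracted, r lay between -0.067 (PSME3) and 0.222 (RBFOX2). The log2 difference of PSME3 was -0.65 for H2009, -0.68 for H441, -0.53 for A549 and -0.67 for H460.

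For the 6 partners the most similar genes were SEC22C (0.783) and RAD21 (0.776) for TERF1, ANKLE2 (0.892) and AGO1 (0.857) for TERF2, CNBD1 (0.807) and CTH (0.795) for TINF2, MTMR3 (0.853) and NFKBIA (0.830) for POT1, RFC5 (0.910) and B4GALNT1 (0.881) for ACD, and AOPEP (0.835) and UTP23 (0.810) for TERT. With the mean of each group subtracted these values lay between 0.639 and 0.935. Arrays with a wide spread weigh most in such values, and for ACD and TERF2 those were the H441 arrays. The SD of ACD was 0.47 in H441 δ193 cells and 0.22 in H441 δscr cells, against 0.13 or less in every other group. For TERF2 it was 0.29 and 0.11, against 0.09 or less. How far the r values rest on H441 was not tested. The r of each partner with TERF2IP itself, with line means subtracted, was 0.53 for POT1, 0.44 for TERF1, 0.21 for TERF2, 0.02 for ACD, -0.03 for TERT and -0.21 for TINF2. These values carry the split by shRNA that chose TERF2IP. With the mean of each group subtracted, r was 0.46 for POT1, -0.19 for TERF1, -0.45 for TERF2, -0.32 for ACD, 0.30 for TERT and 0.32 for TINF2, so the sign differed for all but POT1. The nearest measured gene on each side of each partner was not called in any line.

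None of the 6 partners of TERF2IP was called in any line, while of all genes 4.91% were called for H2009, 14.3% for H441, 4.63% for A549 and 5.45% for H460. The unadjusted p from limma was under 0.05 for 0, 3, 1 and 2 of them in the same order of lines, and the methods' t-test at its own thresholds, without adjustment, called 0, 0, 1 and 1. For these rules without adjustment, here and below, the share of all genes was not counted, so the counts have no background beside them. The median size of log2 difference of the 6 partners was 0.12, 0.15, 0.11 and 0.14, beside 0.11, 0.15, 0.10 and 0.11 for all genes. Averaged over the 4 lines, where 3.63% of all genes were called, the 6 partners lay between -0.14 and 0.04 and none was called (2 with an unadjusted p under 0.05).

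**Figure D3:**
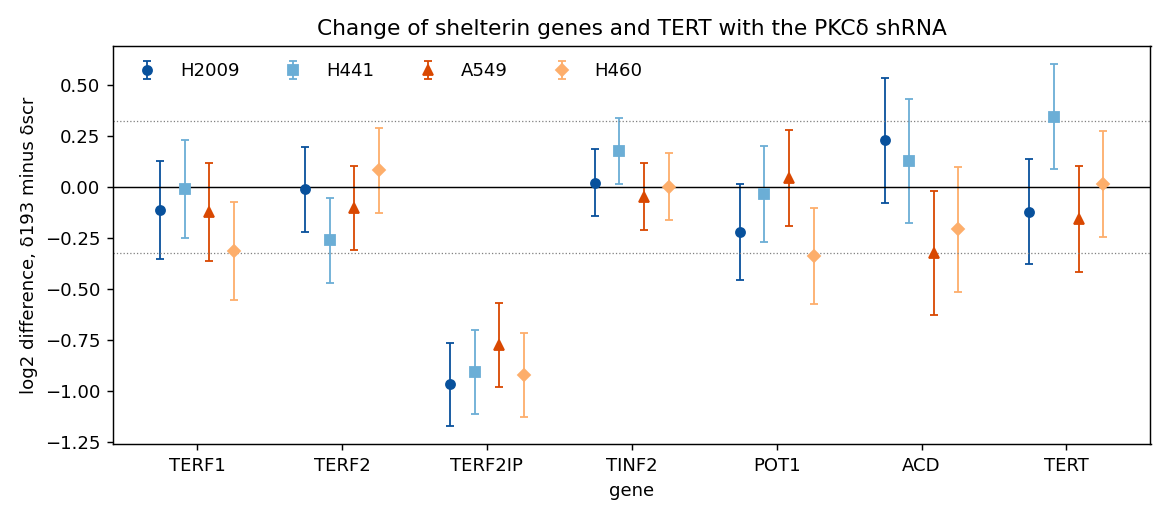
Log2 difference, δ193 minus δscr (vertical axis), of each shelterin gene and TERT (horizontal axis), with a symbol for each cell line and bars for the 95% confidence interval from limma; dotted lines mark a log2 difference of 0.32 in either direction. The 4 values of TERF2IP lie between -0.97 and -0.77 and those of the other genes between -0.34 and 0.35. The intervals of TERF2IP, whose fall chose the set, are drawn as a description and not as a test.

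TERF2, whose product anchors RAP1 at the telomere, was not called where TERF2IP was lower. Its log2 difference was -0.01 for H2009 (adjusted p = 0.985 from limma), -0.26 for H441 (0.0808), -0.10 for A549 (0.765) and 0.08 for H460 (0.765), with a mean over the lines of -0.07 (95% confidence interval -0.18 to 0.03). In A549 the δ193 arrays read 8.03, 8.05 and 7.95, all below the δscr arrays at 8.11, 8.12 and 8.10. In H460 they read 7.62, 7.60 and 7.59, all above the δscr arrays at 7.54, 7.49 and 7.53. The differences in A549 and H460 were thus of opposite sign. In H441 the δ193 arrays read 7.19, 6.92 and 7.50 and overlapped the δscr arrays at 7.57, 7.36 and 7.46. Without H441 δ193 replicate 3, the highest of them, the difference of TERF2 was -0.41 there and was called (adjusted p = 0.00158). That was the 1 of 24 fits with a single array left out where it was called. Over those fits the difference lay between -0.41 and -0.12, and 0 of 12 other alternatives called it.

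TERF1 and POT1 had their most negative differences in H460. The δ193 arrays of H460 read 8.49, 8.48 and 8.49 for TERF1, against 8.67, 8.80 and 8.93 with δscr, without overlap. The log2 difference was -0.31 (95% confidence interval -0.55 to -0.07, adjusted p = 0.14 from limma), and it was -0.11 in H2009, -0.01 in H441 and -0.12 in A549. A second, dimmer cluster annotated to TERF1 alone differed by -0.29 in H460, -0.15 in A549, 0.16 in H441 and 0.03 in H2009, so the clusters differed in sign in H441 and H2009. POT1 read 6.91, 6.77 and 6.84 in H460 δ193 cells and 7.06, 7.26 and 7.21 in δscr cells, again without overlap. Its log2 difference was -0.34 in H460 (-0.57 to -0.10, adjusted p = 0.0925) and -0.22 in H2009 (adjusted p = 0.35), where the δ193 arrays at 7.80, 7.84 and 7.94 also lay below the δscr arrays at 8.22, 8.07 and 7.95. In H441 and A549 the difference of POT1 was -0.03 and 0.05. POT1 in H460 was called when that line was fitted alone (adjusted p = 0.0189), when the H441 arrays were left out (0.0227) and without H441 δ193 replicate 2 (0.0252). In all it was called in 4 of 13 alternatives and in 1 of 24 fits with a single array left out. TERF1 in H460 was called in 1 of 13 alternatives, with array weights (-0.33, adjusted p = 0.00349 from limma), and in 0 of the 24 fits.

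ACD differed upward in H2009 and downward in A549 and H460, short of the threshold. Its sign in H441 depended on single arrays. In H2009 its δ193 arrays read 7.58, 7.32 and 7.41, all above the δscr arrays at 7.26, 7.17 and 7.19. In A549 they read 7.17, 7.01 and 6.98, all below the δscr arrays at 7.36, 7.42 and 7.35, and in H460 8.30, 8.19 and 8.18, all below 8.42, 8.40 and 8.47. The H441 groups overlapped, with 7.98, 7.77 and 8.66 for δ193 and 7.77, 8.19 and 8.06 for δscr. The log2 differences were 0.23, 0.13, -0.32 and -0.21 in H2009, H441, A549 and H460 (adjusted p = 0.498, 0.628, 0.285 and 0.545 from limma). The mean change in H2009 and H441 minus that in A549 and H460 was 0.44 (95% confidence interval 0.14 to 0.75, adjusted p = 0.0896), and 4.65% of all genes were called in that comparison. None of the 6 partners was called there, and ACD was the 1 of them with an unadjusted p under 0.05. Without H441 δ193 replicate 2 the difference was 0.54 and was called (adjusted p = 0.0141). That was the 1 of 24 fits with a single array left out where it was called. Over those 24 fits it lay between 0.31 and 0.54, and the difference in H441 itself between -0.14 and 0.31. In A549 alone, ACD was called when the H441 arrays were left out (adjusted p = 0.00834) and without H441 δ193 replicate 3 (0.0436). It was called there in 3 of 13 alternatives and in 1 of the 24 fits.

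For TINF2, the bridge of the complex, no difference passed. It was 0.02 for H2009, 0.18 for H441, -0.05 for A549 and 0.00 for H460 (lowest adjusted p = 0.136, in H441), and the groups overlapped in every line. The mean over the lines was 0.04 (95% confidence interval -0.04 to 0.12).

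TERT was not called in any line. Its log2 values lay between 5.06 and 6.38 on the 24 arrays, and whether they stand above background was not measured. In H441 its δ193 arrays read 5.79, 5.56 and 5.85, against 5.06, 5.57 and 5.53 with δscr, an overlap by a single array. The log2 difference there was 0.35 (95% confidence interval 0.09 to 0.60, adjusted p = 0.0602 from limma). It passed without H441 δ193 replicate 2 (0.43, adjusted p = 0.0286), without H441 δscr replicate 2 (0.44, 0.0331), without H441 δscr replicate 3 (0.42, 0.0429) and without A549 δscr replicate 1 (0.35, 0.0456). Without H441 δscr replicate 1, the array at 5.06, it was 0.18 (adjusted p = 0.348). In H2009, A549 and H460 the difference of TERT was -0.12, -0.16 and 0.02.

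A test of whether the change differs among the 4 lines was passed by none of the 6 partners, against 14.1% of all genes (moderated F test in limma). The unadjusted p was under 0.05 for ACD and TERT (adjusted p = 0.165 and 0.15). The groups of δ193 and δscr arrays did not overlap for 2 of the 6 partners for H2009, 0 for H441, 2 for A549 and 4 for H460, where 25.9%, 21.3%, 24% and 34.2% of all genes did not overlap.

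The levels in δscr cells were not used to choose the 6 partners, and they differed among the lines for these genes. All 6 passed the F test over the δscr groups (largest adjusted p = 0.00845 from limma, for TINF2), and 73.7% of all genes did. For TERF2IP the δscr values are part of the difference that chose it, so they are described with no test. Its means were 7.48 ± 0.10 for H2009, 7.34 ± 0.07 for H441, 7.39 ± 0.08 for A549 and 7.19 ± 0.04 for H460 (SD, n = 3 arrays each). Its highest and lowest lines, H2009 and H460, differed by 0.29. Comparing 2 lines with δscr, 49.3% of all genes were called between H2009 and H441, 41.4% between H2009 and A549, 35.5% between H2009 and H460, 48.4% between H441 and A549, 45.4% between H441 and H460 and 38.9% between A549 and H460.

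POT1 and ACD had the widest ranges. POT1, the cover of the single-stranded end, was highest in H2009 δscr cells, at 8.22, 8.07 and 7.95, while the arrays of the other lines lay between 6.87 and 7.26. H2009 exceeded H441 by 0.97, A549 by 1.08 and H460 by 0.90 (largest adjusted p = 5.22e-07 from limma). H441, A549 and H460 did not differ beyond their spread (largest difference -0.18, A549 minus H460, 95% confidence interval -0.41 to 0.05). ACD, which carries POT1, had another order: 8.43 ± 0.04 in H460, 8.01 ± 0.22 in H441, 7.38 ± 0.04 in A549 and 7.21 ± 0.05 in H2009 (SD, n = 3 arrays each). H441 was below H460 by a log2 difference of -0.42 (adjusted p = 0.0195) and above A549 by 0.63 (adjusted p = 0.000836). H2009 and A549, the lowest pair, differed by -0.17 (-0.47 to 0.14, adjusted p = 0.379). H2009 thus combined the highest level of POT1 with the lowest of ACD. Across the 12 δscr arrays the correlation of these genes was -0.49, a description over 4 lines with 3 arrays each.

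TERF2 was highest in A549, at 8.11, 8.12 and 8.10, and A549 exceeded H460 by 0.59 (adjusted p = 3.39e-05 from limma). H2009, the next line, was lower than A549 (-0.33, adjusted p = 0.00881), H2009 exceeded H460 by 0.26 (adjusted p = 0.0431), under the size for a call, and H441 was lower than A549 (-0.65, adjusted p = 7.03e-06) and did not differ from H460 beyond its spread (-0.06, -0.26 to 0.15). TERF1 was lower in H441 than in A549 (-0.53, adjusted p = 0.000409) and H460 (-0.40, adjusted p = 0.00568). A549 and H460 differed by 0.13 (95% confidence interval -0.11 to 0.37) and H2009 and H460 by -0.12 (-0.36 to 0.12), within their spread. Its H441 arrays at 8.54, 8.55 and 8.11 were spread more than those of any other line. TINF2 ranged over 0.30 between its highest line, H441, and its lowest, A549, and no comparison of 2 lines reached 0.32.

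TERT had its highest level in H2009 δscr cells, at 6.38, 6.29 and 6.21, and its lowest in H441 δscr cells, at 5.06, 5.57 and 5.53. H2009 exceeded A549 by 0.35 (adjusted p = 0.0239 from limma), and H441 was lower than H460 by a log2 difference of -0.45 (adjusted p = 0.00387). A549 and H460 did not differ beyond their spread (0.10, 95% confidence interval -0.16 to 0.36). In δ193 cells the group means of TERT spanned 0.44, against 0.91 in δscr cells. The δscr span rests in part on the H441 array at 5.06, and it was not computed without that array.

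**Figure D4:**
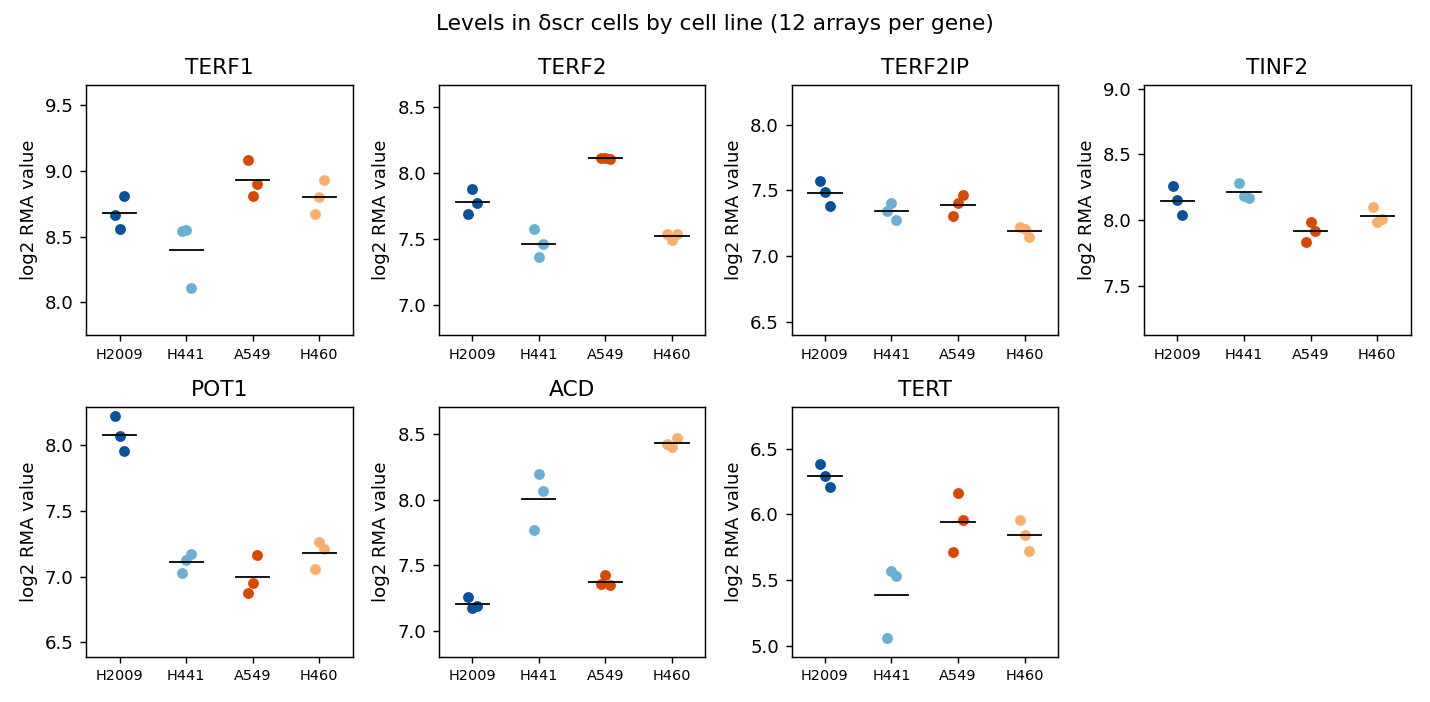
Log2 RMA value (vertical axis) of the 6 shelterin genes and TERT in δscr cells of each line (horizontal axis); points are arrays, 3 a line, lines are means, and every panel spans the same number of log2 units. H2009 stands highest for POT1 and H460 for ACD, while the TERF2IP means lie between 7.19 and 7.48.

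The levels were also compared between the pairs of lines, as the mean of H2009 and H441 minus that of A549 and H460 with δscr. POT1 was higher in H2009 and H441 by 0.51 (95% confidence interval 0.34 to 0.67, adjusted p = 1.05e-05 from limma), and TERF1 lower (-0.33, -0.50 to -0.16, adjusted p = 0.00178). These 2 of the 6 partners were called, where 33.8% of all genes were. The value of POT1 in this comparison rests on H2009, since H441 was not called against A549 or H460. That of TERF1 lies just past 0.32 in size and fell short of it without H441 δscr replicate 3 (-0.25), A549 δscr replicate 1 (-0.29), H2009 δscr replicate 2 (-0.30) or H460 δscr replicate 3 (-0.30). ACD, TERF2 and TINF2 differed by -0.30, -0.19 and 0.21 (adjusted p = 0.0218, 0.0274 and 0.00345), under that size, and ACD was called without H441 δscr replicate 2 (-0.34). With 2 lines on each side, this compares these lines alone.

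Of 81 genes in 7 lists, for telomere maintenance, TERT transcription and NF-κB, 77 were measured. In H2009 5 were called, 1 of them lower, and in H441 10, again 1 of them lower. A549 had 4 called, with 2 lower, and H460 6, with 5 lower. These are 6.49%, 13%, 5.19% and 7.79% of the genes measured, near the shares of all genes (4.91%, 14.3%, 4.63% and 5.45%). No gene was called in 3 lines. Of 11 partners of TERT in telomerase, RUVBL1, an assembly factor, rose by 0.51 in H441 (adjusted p = 5.82e-05 from limma) and NAF1, which helps to build its RNA-protein core, by 0.45 there (0.00332). GAR1, a protein of that core, rose by 0.45 in A549 (0.0356). Of 6 genes of the CST complex and of DNA polymerase α, which fill in the other strand of the end, CTC1 rose by 0.39 in H2009 (0.0105).

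A list of 18 measured genes held enzymes and other proteins of the chromosome end or linked to shelterin. Of these, RAD50, of the MRE11 nuclease complex, rose in H2009 by 0.43 (adjusted p = 0.00093 from limma). In H441 the TRF1-binding telomerase inhibitor PINX1 rose by 0.39 (0.0246) and the endonuclease subunit ERCC1 by 0.35 (0.00553). In H460, where 5.45% of all genes were called, 4 of the 18 were, all lower: HMBOX1, which binds the telomere repeat (-0.52, 0.0119), the helicase WRN (-0.48, 0.00215), and, named after their values were seen, NBN (-0.36, 0.00665) and MRE11 (-0.35, 0.0499), the partners of RAD50. Of 16 genes that sense or repair an uncapped end, the ubiquitin ligase RNF168 rose in H2009 (0.36, 0.0387) and the kinase ATM fell in H441 (-0.47, 0.011). ASF1A, a histone chaperone, rose in A549 (0.53, 0.00124) as the 1 called of 7 chromatin genes.

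Of 12 regulators of TERT transcription, MXD1, which competes with MYC, rose in H441 by 1.38 and in H460 by 1.09 (adjusted p = 0.000334 and 0.00701 from limma), and ETS1 fell in H2009 by 0.48 and in A549 by 0.54 (0.0234 and 0.0109). MYC rose in H441 by 0.65 (0.000101), as did GABPB1 and ETS2, by 0.53 and 0.37, which were named after their values were seen. WT1 rose in H2009 by 0.44 (0.0198). Of the 7 genes of the IκB kinases and NF-κB, to which RAP1 has been linked, NFKB1 rose in H441 (0.38, 0.00803) and fell in A549 (-0.35, 0.0312), and the inhibitor NFKBIA fell in H460 (-0.48, 0.0397).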

How the data were processed

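RNA from 24 cultures (4 NSCLC lines with δ193 or δscr, 3 biological replicates each) was profiled on Affymetrix Human Gene arrays. The deposited log2 values had been made by the authors with Affymetrix Power Tools by RMA (background correction, quantile normalization, a summary over probes), which makes arrays comparable and compresses small changes of dim genes. No program version is given in the sources used here. The number of arrays limits the precision. Of 33252 transcript clusters, 19460 had 1 gene symbol in the annotation of the array, of which 19429 were updated through the Entrez ID. Where a gene had several clusters, that with the highest mean over all 24 arrays stood for it, giving 18417 genes.

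limma 3.58.1 in R 4.3.3 fitted all arrays with 1 coefficient per group and a spread shared by all groups. The Benjamini-Hochberg adjustment ran over 18417 genes, and calls needed an adjusted p below 0.05 with a log2 difference of 0.32 or more in size (F tests, p alone). The fits were also run on simulated arrays with planted changes and independent normal noise, and the outcome is not given here. The methods' t-test, Student's test line by line at the same size, was an alternative. Further alternatives were each line alone, no H441 arrays, another spread, array weights, 2 normalizations, bright genes only, the mean over clusters, the replicate number as a block, other folds and each array left out.

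The 7 genes and the pathway lists were chosen with earlier results of these data known. Genes named were the 7, PRKCD, the measured neighbours of the 7 in RefSeq's order, the genes most correlated with each of the 7 (5 for TERF2IP, 2 for the others), and up to 2 called genes per list and line. TEN1, RTEL1, ATRIP and H3-3A were not analysed here. Promoter sequences are RefSeq's, and 5 of the 7 genes matched that table. Replicate numbers were not used to pair the arrays in the main fit. The property by which the study paired the lines is not reported here.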

Additional observations from a re-analysis of the deposited data

How the results depend on the processing

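The log2 difference of TERF2IP kept its direction in every alternative, between -1.02 and -0.69 over the 4 lines. TERF2IP was chosen for its fall, so counts called with δ193 speak for the 6 partners, of which 0 were called in any line. By the methods' t-test after Benjamini-Hochberg, 0 of the 6 partners were called in any line. TERF2IP itself was not called by that test in H441 or A549, so the count with it was 0 in each of these lines. Since its fall chose the set, this is given as a limit and not as a test of that fall. With array weights the value of TERF2IP in H441 was -0.78. Counted with TERF2IP, so that 2 stands for 1 partner, the number called was 2 in A549 and 2 in H460 by the methods' t-test without adjustment, 2 in H460 with each line fitted alone, and 2 in A549 and 2 in H460 without the H441 arrays. With array weights it was 2 for H441, 2 for A549 and 3 for H460, and 1 partner passed for the difference between the pairs of lines and 3 genes for that among lines, where 0 had. In H441 it was 2 after quantile normalization over genes and 2 with bright genes alone, by TERT. With single arrays left out it was 1 to 2 for each of H441, A549 and H460, 0 to 1 for the difference between the pairs and 0 to 2 for the difference among lines. Of levels between the pairs of lines, where 2 genes were called, 1 was called with array weights, 1 with the array medians set equal, 1 after quantile normalization, 5 with no fold minimum and 0 at a fold of 1.5, and 1 to 3 with single arrays left out. No other count of called genes changed by over 1.5 times, and no called value reversed. The share of all genes called was not counted under the alternatives named here, so these counts do not show a shift particular to these genes. The cause of these shifts was not tested.

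Replicates with the same number deviated together in few cases (correlation of deviations -0.085 to 0.284, over 0.1 in 2 of 12 pairs, in H2009). Replicates with different numbers ranged from -0.292 to 0.174. The main fit did not pair the arrays by number. With the replicate number as a block, 0 of the 6 partners were called in any line, and calls over all genes numbered 887 against 904 for H2009, 2637 against 2636 for H441, 839 against 852 for A549 and 988 against 1003 for H460. The depth of an array is not counted, and the larger spread of the H441 arrays enters the spread shared by all lines.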
